A study of Homo sapiens with 22 samples.

Results

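SMAD1, SMAD2, SMAD3, SMAD4, SMAD5, SMAD6, SMAD7, SMAD9, ID1 and ID2 were followed across genotype and day in RNA-Seq of HUDEP-2 cells, an immortalised human erythroid precursor line that matures in culture. These 10 genes, of 59087 gene names in each count table, were chosen by name, and the values that drew attention to them were those of SMAD1, which had no reads in H2A.X WT cells at D0 and was expressed in H2A.X KO cells. The SMAD1 values of the H2A.X experiment are therefore given as a description at both days, with no test. All 10 names were present in both tables. In each experiment 8 members passed the filter on low counts and were tested, while SMAD7 and SMAD9 did not pass. SMAD1 in the H2A.X experiment passed through its KO libraries, and SMAD6 through its D6 libraries, those of the KO in the H2A.X experiment.

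In 1 experiment, 2 WT subclones were compared with 3 H2A.X KO subclones, and in another 3 WT with 3 BAZ1B KO subclones. Each subclone was sampled under expansion conditions (D0) and after 6 days of maturation (D6), for 22 libraries in all. KO subclones were derived from sorted cells after lentiviral CRISPR/Cas9 delivery, by dilution to about 1 cell in each well, and the study states that WT subclones went through the same procedure. The H2A.X deletion removed the coding sequence of the histone variant H2A.X, and the BAZ1B deletion removed the first exon of BAZ1B, a kinase of H2A.X. Each group is a few derived subclones, so a KO effect cannot be told apart from what the particular clones of a group share.

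SMAD proteins carry signals of the TGF-beta superfamily from the cell surface to the nucleus. BMP receptors phosphorylate SMAD1, SMAD5 and SMAD9, TGF-beta and activin receptors phosphorylate SMAD2 and SMAD3, and both kinds of receptor SMAD act with the common partner SMAD4. SMAD6 and SMAD7 are inhibitory members whose own genes are switched on by the pathway, and ID1 and ID2 are well known BMP targets that hold basic helix-loop-helix factors away from DNA. In erythroid cells BMP4 signalling through SMAD5 is known for its part in stress erythropoiesis.

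The start regions of 3 members are shown because SMAD6 and SMAD5 moved in opposite directions with maturation and SMAD1 was the member silent in 1 set of WT clones. Each is the RefSeq window of 250 bases before and 50 after an annotated start on the plus strand of GRCh38.p14, at chr15:66701986-66702285 for SMAD6, chr5:136132595-136132894 for SMAD5 and chr4:145481400-145481699 for SMAD1, of which 5 starts are listed. Capitals mark matches to 4 short motifs searched on both strands, namely the SMAD-binding palindrome GTCTAGAC, the shorter SMAD element CAGAC, the GC-rich BMP element GGCGCC and the GATA-factor motif AGATAA, none of which contains another.
SMAD6: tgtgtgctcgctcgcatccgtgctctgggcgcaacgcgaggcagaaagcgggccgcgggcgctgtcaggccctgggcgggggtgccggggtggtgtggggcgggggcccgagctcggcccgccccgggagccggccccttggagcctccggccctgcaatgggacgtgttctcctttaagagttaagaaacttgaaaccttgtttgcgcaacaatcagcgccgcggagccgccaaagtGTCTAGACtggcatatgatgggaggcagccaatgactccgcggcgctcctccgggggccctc
SMAD5: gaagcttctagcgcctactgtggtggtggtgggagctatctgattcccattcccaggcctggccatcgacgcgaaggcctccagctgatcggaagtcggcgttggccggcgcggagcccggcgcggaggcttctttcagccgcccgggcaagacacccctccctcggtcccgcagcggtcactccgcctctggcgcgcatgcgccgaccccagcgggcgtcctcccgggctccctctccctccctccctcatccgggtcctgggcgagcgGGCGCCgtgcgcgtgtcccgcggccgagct
SMAD1: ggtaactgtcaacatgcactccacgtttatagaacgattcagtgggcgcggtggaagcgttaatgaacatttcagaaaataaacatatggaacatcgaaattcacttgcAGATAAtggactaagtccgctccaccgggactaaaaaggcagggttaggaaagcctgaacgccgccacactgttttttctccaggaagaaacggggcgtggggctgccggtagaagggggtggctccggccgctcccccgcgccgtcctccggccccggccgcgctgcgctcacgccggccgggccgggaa

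The palindrome GTCTAGAC lay 12 to 5 bases before the SMAD6 start and in none of the other 20 member windows, and 0.202% of all 35116 windows in the table held it. GGCGCC was present once in the SMAD5 window, against 19.2% of all windows. Of the 5 SMAD1 windows, only the one shown held AGATAA, once (10.3% of all windows). Of the others, 2 held GGCGCC and 1 of these also held CAGAC (45.3% of all windows). These shares are per window, and a match could lie in any of the 5 windows of SMAD1. A match is a description of these letters and does not show that a factor bound there.

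Libraries of the H2A.X experiment held 11910141 to 21013004 counts and those of the BAZ1B experiment 33199408 to 41273244, and 13236 and 13879 genes were tested. Adjusted p-values are from edgeR's quasi-likelihood test with Benjamini-Hochberg adjustment over all of them, and a gene was called at an adjusted p below 0.05. Levels are given as reads or as cpm, the counts per 1000000 of the TMM-scaled library size. The targeted gene was lower in each KO: H2AFX, which encodes H2A.X, had 89.7 to 136 cpm in H2A.X WT and 17.5 to 59.8 cpm in KO libraries over both days, and BAZ1B had 242 to 264 cpm in BAZ1B WT and 174 to 222 cpm in KO libraries, where parts of the gene outside the deletion are still counted. In the H2A.X experiment the KO against WT change rose with transcript length across 12017 genes (Spearman's rho 0.545 at D0 and 0.602 at D6), whereas in the BAZ1B experiment it did not (rho -0.03 and 0.052). H2A.X effects are therefore also given after a correction for length and GC content. All 14 erythroid markers passed the filter in both experiments. Against H2A.X WT, 12 of 14 were lower in the KO at D0, where 16.7% of all genes were lower. At D6 2 were lower and 2 higher, where 20.9% of all genes were lower and 22.2% higher. These marker counts are without the correction, and some markers have short transcripts, such as HBB (628 bases) and AHSP (488 bases). The part of length in these counts was not tested. Summed markers of lymphoid cells and of stromal and endothelial cells stayed at or below 1.43 cpm and 0.298 cpm in every library.

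SMAD1, a BMP receptor SMAD at chr4:145481194-145559176 (GRCh38, GENCODE 44), was the member with the widest spread between groups. In the H2A.X experiment it had 0 and 0 reads in the WT libraries at D0 and 449, 679 and 561 reads in the KO libraries at D0. A count of 0 allows up to 3 reads, or 0.173 and 0.204 cpm in these WT libraries, counting error only. Against that limit the KO mean of 27.0 ± 5.82 cpm (SD, n = 3) was at least 143-fold higher, which is the contrast that chose the list. At D6, in libraries that the choice did not use but from the same clones, WT had 2 and 1 reads and KO had 296, 308 and 357 reads, and all KO libraries lay above both WT libraries. Summed over libraries and scaled by library size, the 961 KO reads against 3 WT reads made a ratio of 145, with an exact 95% interval of 49.3 to 702 that covers counting error only. Within the KO, SMAD1 had 21.6 to 33.2 cpm at D0 and 15.5 to 19.6 cpm at D6. The KO values at D0 are among those that chose the list, so this difference between days is a description only. Fewer cells with SMAD1 and less SMAD1 RNA per cell cannot be told apart in these bulk libraries.

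The WT libraries of the other experiment were not silent. SMAD1 had 36.2, 35.5 and 34.3 cpm in BAZ1B WT at D0 and 28.7, 27.2 and 25.5 cpm at D6, so the H2A.X KO libraries, at 15.5 to 33.2 cpm over both days, were closer to BAZ1B WT than H2A.X WT was. The experiments were sequenced and normalized separately, and this difference between WT sets was not tested. In the plot of SMAD1 by library the H2A.X WT clones are the only group near 0. In the column names, 5 of the 6 H2A.X KO libraries carry the word Redo and no WT library does, so at D0 this mark and the genotype cannot be told apart. The KO library at D6 without the mark had 357 SMAD1 reads, the most of its group. Some markers of other blood lineages differed in the same direction as SMAD1 at D0 in the H2A.X experiment. The summed level of 6 megakaryocyte markers was 8.72 to 9.67 cpm in H2A.X WT, 32.7 to 75.7 cpm in H2A.X KO and 72.3 to 75.5 cpm in BAZ1B WT, nearly all of it from ITGA2B, which early erythroid cells also express, while PF4 and PPBP had 0 reads in every library. The summed level of 8 mast cell and eosinophil markers was 104 to 140 cpm in H2A.X WT, 209 to 419 cpm in H2A.X KO and 467 to 508 cpm in BAZ1B WT. In BAZ1B KO at D0, where SMAD1 was lower than in WT, the megakaryocyte sum was 34.4 to 67.6 cpm. The mast cell and eosinophil sum there was 453 to 620 cpm. Markers of granulocytes and monocytes did not rise with SMAD1, at 0.749 to 1.21 cpm in H2A.X WT and 0.433 to 0.89 cpm in H2A.X KO at D0. The part of these markers in the SMAD1 values was not tested.

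**Figure D1:**
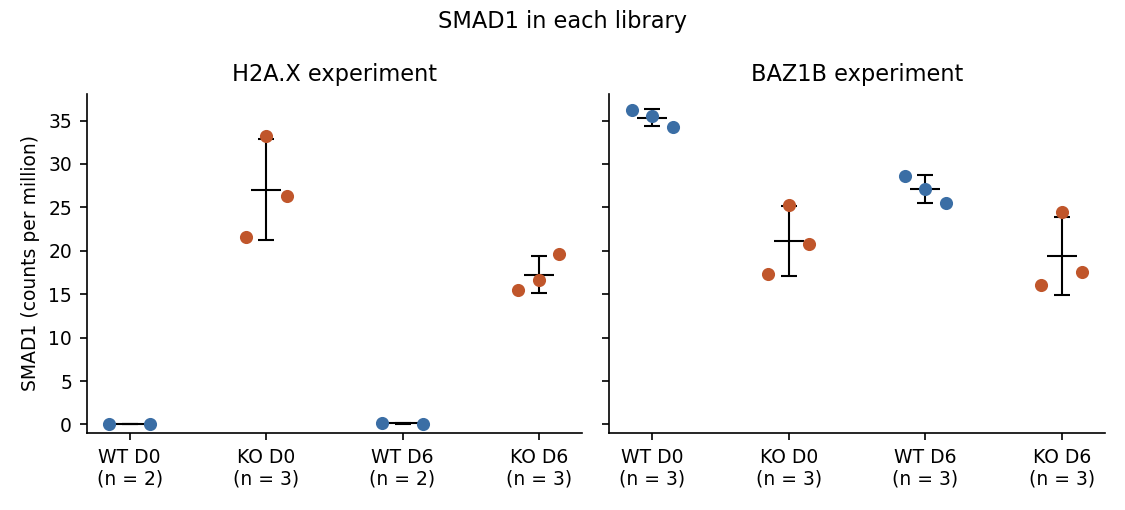
SMAD1 in cpm in each library (points), with group mean and SD (black), for WT (blue) and KO (orange) subclones at D0 and D6 of the H2A.X experiment (left) and the BAZ1B experiment (right). The 4 H2A.X WT libraries lie between 0 and 0.130 cpm and every other library lies between 15.5 and 36.2 cpm.

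BAZ1B KO cells had less SMAD1 than their WT at both days. At D0 the KO libraries had 17.3, 25.3 and 20.8 cpm, all below the WT libraries, and SMAD1 fell by 0.74 on the log2 scale (SE 0.145, adjusted p = 0.0117), or 1.67-fold. It was the only 1 of the 8 members tested that was called at D0 (12.5%), where 3.88% of all genes were called. At D6 the KO libraries had 16.1, 24.5 and 17.6 cpm against 25.5 to 28.7 cpm in WT, again without overlap, and SMAD1 fell by 0.49 (SE 0.148, adjusted p = 0.0484), or 1.40-fold. It was again 1 of 8 called, where 12.8% of all genes were called. The D0 call was lost without WT replicate 1 (-0.72, adjusted p = 0.0542) or KO replicate 3 (-0.73, 0.0614). The D6 call was lost without any 1 of the WT replicates or without KO replicate 1 or 3, with SMAD1 values from -0.54 to -0.37 and adjusted p-values from 0.0843 to 0.157. It was also lost with globin genes left out (-0.48, adjusted p = 0.051) and with the D6 libraries fitted alone (-0.49, 0.0524).

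SMAD5, the BMP receptor SMAD on chromosome 5 (136132845-136188747), was expressed in all groups. At D0 it had 21.9 and 18.7 cpm in H2A.X WT and 46.0, 38.5 and 41.5 cpm in H2A.X KO, and at D6 it had 7.09 and 5.81 cpm in WT and 22.1, 13.9 and 14.4 cpm in KO. The groups did not overlap at either day, and H2A.X KO lay above WT. SMAD5 was 2.07-fold higher in the KO at D0, a log2 value of 1.05 (SE 0.228, adjusted p = 0.00985), and 2.59-fold higher at D6 (1.37, SE 0.243, adjusted p = 0.00412). Neither call held under the correction, which left 0.31 (adjusted p = 0.237) and 0.47 (adjusted p = 0.111). Without WT replicate 2 the values were 0.94 (adjusted p = 0.119) at D0 and 1.27 (0.0631) at D6. In the BAZ1B experiment SMAD5 overlapped between KO and WT, with log2 fold changes of -0.17 (SE 0.17, adjusted p = 0.709) and -0.16 (SE 0.192, adjusted p = 0.651). SMAD9, the other BMP receptor SMAD, had 0 to 2 reads in each of the 22 libraries.

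The receptor SMADs of the TGF-beta branch were not called between genotypes without correction. SMAD2 had 104 to 134 cpm at D0 in the H2A.X experiment, and its KO effect was -0.17 (SE 0.142, adjusted p = 0.355) at D0 and 0.19 (SE 0.143, adjusted p = 0.313) at D6. SMAD3 was the more variable of the pair, with 35.4, 8.28 and 21.9 cpm in the H2A.X KO libraries at D6 against 19.1 and 12.4 cpm in WT, and was not called at D6 (0.46, SE 0.483, adjusted p = 0.452) or D0 (0.12, SE 0.475, adjusted p = 0.861). In the BAZ1B experiment SMAD2 had 132.9 to 151.5 cpm in all 12 libraries. SMAD3 in BAZ1B KO at D0, at 25.8, 22.9 and 23.8 cpm, lay below the WT libraries at 29.8, 27.6 and 28.8 cpm without passing the threshold (-0.25, SE 0.074, adjusted p = 0.0899). DESeq2 gave -0.25 with an adjusted p of 0.0495, and leaving out KO replicate 1 gave -0.30 (adjusted p = 0.0275).

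SMAD4, the common partner, had 77.3 and 75.3 cpm in H2A.X WT and 60.4, 57.7 and 73.5 cpm in H2A.X KO at D0, without overlap and without a call (-0.26, SE 0.159, adjusted p = 0.223). Corrected, it was lower in the KO at D0 (-1.16, adjusted p = 0.0125) and at D6 (-1.10, adjusted p = 0.0159), where the value without correction was -0.17 (SE 0.159, adjusted p = 0.39). In the BAZ1B experiment SMAD4 was not called at D0 (-0.06, SE 0.0528) or D6 (0.07, SE 0.0527). SMAD2 moved the same way as SMAD4 in H2A.X KO under the correction at D0 (-1.62, adjusted p = 0.0115). The canonical transcript used for SMAD2 is 34626 bases long, and that of SMAD4 8772 bases, so their corrected values rest on long annotated 3' ends. SMAD2, SMAD4 and SMAD7 all lie on chromosome 18, where the corrected KO change had a median of -0.39 over 159 genes at D0, against -0.01 over all genes. The part of either in these values was not tested.

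In the H2A.X KO, ID1 was lower than in WT at D0 and ID2 at D6, each called at 1 day. ID1 had 10.1 and 17.1 cpm in WT and 3.23, 7.38 and 6.23 cpm in KO at D0, with every KO library below both WT libraries, and was 2.42-fold lower (-1.28, SE 0.399, adjusted p = 0.0325). ID2 was far more abundant, with 188 and 215 cpm in WT and 242, 224 and 249 cpm in KO at D0 (0.24, SE 0.227, adjusted p = 0.419). At D6 the order of ID2 was the opposite, with 266 and 286 cpm in WT against 239, 129 and 157 cpm in KO, and ID2 was 1.58-fold lower in the KO (-0.66, SE 0.223, adjusted p = 0.037). ID1 at D6 overlapped between the genotypes (-0.67, SE 0.402, adjusted p = 0.196). Correction ended both calls, leaving ID1 at -0.59 (adjusted p = 0.286) at D0 and ID2 at -0.15 (adjusted p = 0.667) at D6. The ID1 call was also lost without WT replicate 2, KO replicate 1 or KO replicate 3 (-1.36 to -0.85, adjusted p from 0.0666 to 0.289), and the ID2 call without either WT replicate or without KO replicate 2 or 3 (-0.69 to -0.48, adjusted p from 0.0866 to 0.206) and with the D6 libraries alone (-0.62, 0.122).

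In BAZ1B KO cells at D6, ID1 had 7.15, 8.59 and 6.94 cpm against 10.4, 11.3 and 10.8 cpm in WT. The groups did not overlap, and the difference of -0.52 (SE 0.168) had an adjusted p of 0.0632 with edgeR and 0.0245 with DESeq2 (-0.51). ID1 at D0 (-0.13, SE 0.171, adjusted p = 0.796) and ID2 at both days (-0.03, SE 0.0869 and -0.07, SE 0.0879) overlapped between BAZ1B KO and WT.

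Over the 7 tested members other than SMAD1, 2 were called between H2A.X KO and WT at D0 (28.6%), SMAD5 higher and ID1 lower, where 35.1% of all genes were called. At D6 they were again 2 of 7, SMAD5 higher and ID2 lower, where 43.1% of all genes were called. Both shares are below the background. That background rests on WT replicate 2, without which 77 of 13978 genes (0.551%) were called at D0 and 152 of 13823 (1.1%) at D6. The difference between the KO effects at D6 and D0 was called for 0 of 7 members in the H2A.X experiment, where 1.34% of all genes were called, with 2 members at an unadjusted p below 0.05 (SMAD6 6.04, adjusted p = 0.148, and ID2 -0.90, SE 0.32, adjusted p = 0.216). SMAD6 passed the filter there through its KO libraries at D6, so its value is not a test of that difference. The ID2 difference was called without KO replicate 1 at D6 (-1.19, adjusted p = 0.0356). In the BAZ1B experiment it was called for 0 of 8 by edgeR and 0 by DESeq2, with 0 at an unadjusted p below 0.05, where 2.47% of all genes were called. DESeq2 also called 0 of the 7 in the H2A.X experiment.

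**Figure D2:**
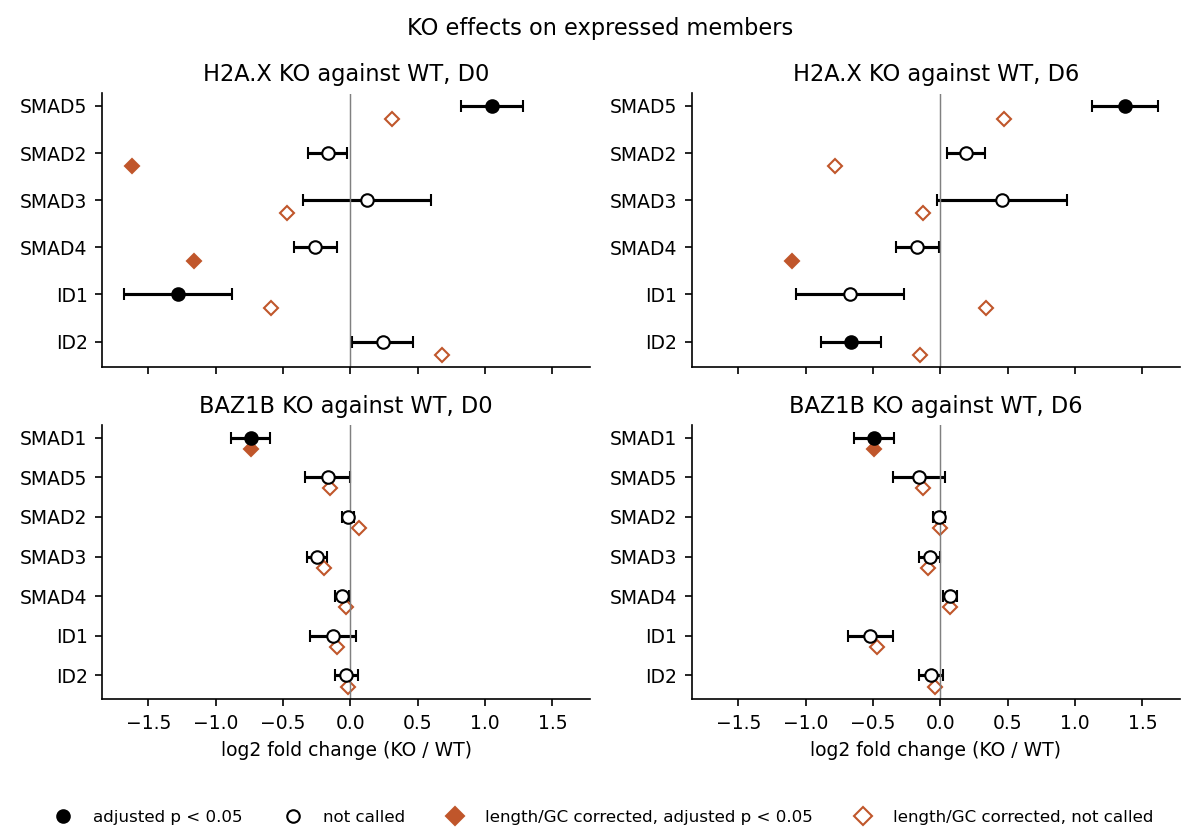
Log2 fold change of KO over WT (horizontal axis) with its SE for members tested at D0 and D6, as circles without correction and diamonds after the length and GC correction (no error bar), filled where the adjusted p was below 0.05. SMAD1 in H2A.X (near-silent WT) and SMAD6 (near-silent D0) are left out. In H2A.X KO, SMAD5 lies at 1.05 and 1.37 and moves to 0.31 and 0.47 under the correction, while BAZ1B values hardly move.

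More members were called between days than between genotypes in the BAZ1B experiment, as was the case among all genes. Between days 68.9% of all genes in WT and 67.7% in KO were called, and between genotypes 3.88% at D0 and 12.8% at D6. SMAD5 had 47.8, 49.5 and 46.0 cpm in BAZ1B WT at D0 and 14.8, 13.2 and 10.4 cpm at D6, with no overlap, and was 3.73-fold lower (-1.90, SE 0.183, adjusted p = 9.12e-07). In BAZ1B KO the SMAD5 change was -1.89 (SE 0.185, adjusted p = 1.08e-06). The H2A.X experiment gave the same direction, with -1.64 (SE 0.259, adjusted p = 0.0263) in WT and -1.32 (SE 0.2, adjusted p = 0.00116) in KO. SMAD5 was lower at D6 in each of the 11 subclones. The WT call in the H2A.X experiment was lost without WT replicate 1 or 2 at D0 (-1.53, adjusted p = 0.15, and -1.76, 0.0824) or WT replicate 2 at D6 (-1.54, 0.25).

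SMAD6, the inhibitor of BMP receptor signalling at chr15:66702236-66782849, was nearly silent at D0 and appeared at D6. BAZ1B WT had 4, 3 and 0 reads at D0 and 188, 230 and 283 reads at D6, a fitted log2 value of 6.85 (SE 0.944). BAZ1B KO had 0, 0 and 0 reads at D0 and 24, 224 and 95 at D6, so every D6 library lay above every D0 library and the mean was at least 42.6-fold higher. In the H2A.X experiment KO libraries went from 0, 0 and 0 reads to 6, 22 and 20 reads, at least 6.03-fold. WT went from 3 and 1 reads to 4 and 2 reads, without a call (0.90, SE 1.06, adjusted p = 0.683). Because SMAD6 passed the filter through D6 libraries, its rise between days is given without a p-value. It is included in the counts of members called between days, where its call follows from the filter and adds no evidence. These H2A.X counts sit close to the floor of 3 reads, and the fitted fold changes against groups at 0 are not bounds.

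SMAD6 at D6 differed widely among the BAZ1B KO clones, at 0.633, 6.92 and 2.65 cpm against 5.58, 6.93 and 7.59 cpm in WT. Clone 2 reached the WT range and the others did not. SMAD6 was not called between BAZ1B KO and WT at D6 (-0.99, SE 0.585, adjusted p = 0.319). It was lower in the KO without KO replicate 2 (-2.04, adjusted p = 0.0257) and with no filter on low counts (-0.99, adjusted p = 7e-05). In the H2A.X experiment SMAD6 was not called at D0 (0 reads in each KO library against 3 and 1 in WT, adjusted p = 0.0593) or at D6 (1.84, SE 0.801, adjusted p = 0.0948). The D6 value was 2.24 without KO replicate 1. SMAD6 passed the filter there through its KO libraries at D6, so neither D6 value is a test of the KO effect. SMAD7, the inhibitor of TGF-beta receptor signalling, had 0 to 5 reads in every library at both days.

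The remaining members moved less with maturation. In BAZ1B WT, ID1 was higher at D6, from 6.96, 6.17 and 6.52 to 10.4, 11.3 and 10.8 cpm (0.72, SE 0.168, adjusted p = 0.00187), and in BAZ1B KO it was not called (0.33, SE 0.171, adjusted p = 0.105). ID2 was lower in BAZ1B WT, from 188, 187 and 190 to 143, 138 and 136 cpm (-0.44, SE 0.0875, adjusted p = 0.000607), and in KO (-0.48, SE 0.0877, adjusted p = 0.000325). SMAD3 was lower in WT (-0.41, SE 0.0745, adjusted p = 0.000303) and KO (-0.24, SE 0.0752, adjusted p = 0.0138), and SMAD4 was higher in WT (0.18, SE 0.0527, adjusted p = 0.00958) and KO (0.31, SE 0.0528, adjusted p = 0.000188). SMAD1 was lower in WT (-0.38, SE 0.144, adjusted p = 0.0305) and not called in KO (-0.13, SE 0.148, adjusted p = 0.462). SMAD2 was not called in either (-0.05 in both, SE 0.0444 and 0.0445), while under the length and GC correction it was higher at D6 in both (0.32, adjusted p = 0.000118, and 0.26, adjusted p = 0.000617). The SMAD1 call in WT was lost without any 1 of the WT replicates at D0 or WT replicate 2 or 3 at D6 (-0.40 to -0.33, adjusted p from 0.0525 to 0.11). For SMAD3 in KO the call was lost under the correction (-0.12, adjusted p = 0.186), without KO replicate 1 at D0 (-0.18, 0.0522) and without KO replicate 3 at D6 (-0.15, 0.0744). Members that passed in KO only with a library left out were SMAD1 without KO replicate 2 at D6 (-0.33, adjusted p = 0.0353) and ID1 without KO replicate 1 at D0 (0.59, adjusted p = 0.00144).

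Between D6 and D0, 7 of 8 members were called in BAZ1B WT (87.5%), where 68.9% of all genes were called. In BAZ1B KO 5 of 8 were called (62.5%), where 67.7% of all genes were, SMAD6 included in both. SMAD6 passed the filter through its D6 libraries, so a share that counts it does not show more calls than among all genes. In the H2A.X experiment, over the members other than SMAD1, 1 of 7 was called in WT where 2% of all genes were called, and 2 of 7 in KO, SMAD5 and SMAD6, where 30.9% were called. The subclone numbers paired the days in the H2A.X experiment, and with subclone as a block 4 of 7 were called in KO, with SMAD4 at 0.38 (adjusted p = 0.0337) and ID2 at -0.49 (adjusted p = 0.0356) added. The KO count was 1 without KO replicate 2 or 3 at D6, where SMAD6 did not pass the filter, and ID2 was called without KO replicate 1 at D6 (-0.74, adjusted p = 0.00743). At stricter cutoffs, an adjusted p below 0.001 and a log2 change above 1.5, SMAD5 and SMAD6 were called between days in BAZ1B WT (2 of 8, where 11.7% of all genes were called) and KO (2 of 8, where 11.5% were called), and 0 of 7 in H2A.X KO, where 3.22% were called, and in H2A.X WT, where 0% were called. Between genotypes those cutoffs called 0 of the 7 members other than SMAD1 in the H2A.X experiment at D0 and D6, where 0.166% and 0.151% of all genes were called, and 0 of 8 in the BAZ1B experiment, where 0.36% and 0.749% were called. Of the erythroid markers, 14 of 14 were called higher at D6 in BAZ1B WT, in BAZ1B KO and in H2A.X KO. In H2A.X WT 0 of 14 were called, with a median log2 change of 0.75. Their summed level in H2A.X WT was 25000 to 34300 cpm at D0 and 39400 to 66300 cpm at D6. In H2A.X KO it was 12500 to 16800 cpm at D0 and 44700 to 74500 cpm at D6. Markers of mast cells and eosinophils summed to 145 to 232 cpm in H2A.X WT at D6 against 3.08 to 13.5 cpm in H2A.X KO. The part of these differences in the members' values was not tested.

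**Figure D3:**
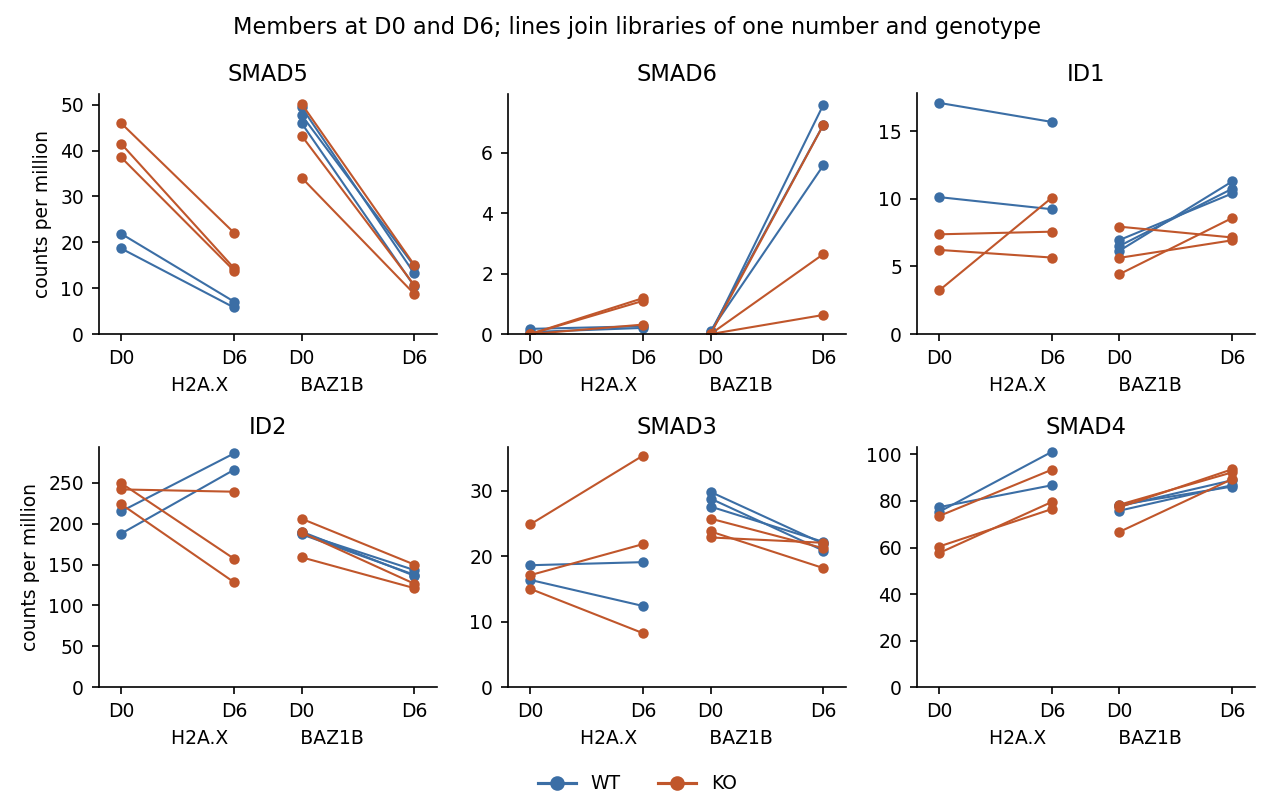
Levels in cpm of 6 members at D0 and D6, with a line for each subclone of the H2A.X (left) and BAZ1B (right) experiments in each panel, WT in blue and KO in orange. SMAD5 falls in all 11 subclones, SMAD6 starts at or near 0 and reaches 0.633 to 7.59 cpm in the BAZ1B experiment, and SMAD6 stays at or below 1.19 cpm in the H2A.X experiment.

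Per kilobase of the canonical transcript, ID2 was the most abundant member in every group, with group means of 102 to 212 cpm per kilobase, and its lowest library lay above the highest library of any other member. In BAZ1B WT at D0 the order after ID2 was SMAD1 (11.8 ± 0.323, SD, n = 3), SMAD4 (8.81 ± 0.146), SMAD5 (6.81 ± 0.247), ID1 (6.66 ± 0.402), SMAD3 (4.45 ± 0.174) and SMAD2 (4.33 ± 0.044). SMAD5 and ID1 overlapped there, as did SMAD3 and SMAD2. By D6 SMAD5 had dropped to 1.83 ± 0.317 and overlapped SMAD6 at 1.75 ± 0.266, and ID1, at 10.6 to 11.5, was the second. In H2A.X WT at D0, SMAD1 and SMAD9 shared the last place at 0. The position of SMAD2 rests on its long annotated transcript.

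Other genes of the pathway were taken from 9 lists of 106 genes, of which 57 were tested in the first experiment and 58 in the second. In H2A.X KO at D0, 17 were higher and 4 lower (36.8% called), and at D6 20 were higher and 9 lower (50.9%), against the 35.1% and 43.1% of all genes given above (18.4% higher and 16.7% lower at D0, 22.2% higher and 20.9% lower at D6). With the correction 8 were higher and 6 lower at D0 (24.6%), and 8 were higher and 4 lower at D6 (21.1%), where 21.0% of all genes were called at each day. The median change over the tested pathway genes was 0.37 at D0 and 0.48 at D6, against 0.013 and -0.006 over all tested genes.

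Counts by step of the pathway are without the correction, which left 8 pathway genes higher at D6 in place of 20. Beside them, 18.4% of all genes were higher and 16.7% lower at D0, and 22.2% higher and 20.9% lower at D6. None of 6 tested ligands was called in H2A.X KO at D0 and 2 were lower at D6. Of the 4 tested type I receptors 2 were higher at D0 and none was called at D6. ACVR1, among these 4, had 58, 19 and 31 reads in KO and 0 and 3 in WT at D0. It passed the filter through those KO libraries, so its value at D0 is not a test of the KO effect. Of the 5 type II receptors 2 were higher at D0, among them BMPR2, the main BMP type II receptor, at 970 ± 30.9 normalized counts in KO (SD, n = 3) against 325 ± 115 in WT (n = 2), with 1.57 (SE 0.353, adjusted p = 0.0108) before and 0.54 (adjusted p = 0.071) after correction. Regulators of SMAD turnover and activity, the largest of these lists among tested genes, had 6 of 18 higher and 1 lower at D0 and 12 higher and 2 lower at D6. They included the ubiquitin ligase RNF111 at D0 (1.85, SE 0.221, adjusted p = 0.00207, and 1.25 after correction, adjusted p = 0.00264) and at D6 the SMAD4 ligase TRIM33 (1.83, SE 0.321, adjusted p = 0.00402), the ligase SMURF2 (1.70, SE 0.304, adjusted p = 0.00418) and the deubiquitinase USP9X (1.58, SE 0.37, adjusted p = 0.00844). After correction TRIM33 was 0.82 (adjusted p = 0.03), SMURF2 0.96 (0.0318) and USP9X 0.44 (0.178). The KO libraries at D6 spread widely, with TRIM33 at 3792 and 4686 normalized counts in those marked Redo and 1942 in the other. USP9X had 6088 and 6560 in those marked and 2534 in the other. WT had 975.5 and 971.7 for TRIM33 and 1692 and 1698 for USP9X.

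Of the 6 corepressors, also without the correction, 3 were higher at D0, and 3 higher and 1 lower at D6. ZEB1, a zinc-finger repressor, rose at D0 (1.83, SE 0.371, adjusted p = 0.00855) and D6 (2.42, SE 0.387, adjusted p = 0.00365), and also after correction (1.22, adjusted p = 0.0314, and 1.64, 0.0149). Its relative ZEB2 rose at D0 (1.54, SE 0.26, adjusted p = 0.00555, and 0.64 after correction, 0.0117). TCF4, which encodes an E protein that ID proteins bind, was higher at D0 (1.48, SE 0.202, adjusted p = 0.00317) and not called after correction (0.64, 0.0901). GDF11, a ligand of the activin branch, was lower at D6, at 21.9 ± 10.6 normalized counts against 82.6 ± 56.0 (-1.93, SE 0.466, adjusted p = 0.00949), and after correction (-2.69, 0.00983).

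In BAZ1B KO, 2 of 58 pathway genes were higher and 2 lower at D0 (6.9% called, against 3.88% of all genes), and 8 were higher and 6 lower at D6 (24.1%, against 12.8%). Of all genes 1.25% were higher and 2.64% lower at D0, and 6.87% were higher and 5.97% lower at D6. LTBP1, which binds latent TGF-beta in the matrix, had 7.94 ± 6.78 normalized counts in KO against 135 ± 2.04 in WT at D0 (SD, n = 3 each), a log2 value of -4.06 (SE 0.275, adjusted p = 2.27e-06), and was still lower at D6 (-1.24, SE 0.0998, adjusted p = 9.3e-06). ZEB1 was higher at D0 (1.54, SE 0.364, adjusted p = 0.0339), NEDD4L, a ligase for activated SMAD2 and SMAD3, was lower (-0.46, SE 0.0458, adjusted p = 7.9e-05), and the ligase STUB1 was higher (0.17, SE 0.041, adjusted p = 0.0337). At D6 GDF15, a ligand known to be released by erythroblasts, was lower (-1.34, SE 0.224, adjusted p = 0.00178), as was the corepressor SKIL (-0.61, SE 0.183, adjusted p = 0.0459, and -0.53 after correction, 0.103), while the BMP antagonist NBL1 (0.77, SE 0.118, adjusted p = 0.001) and the receptor AMHR2 (0.52, SE 0.115, adjusted p = 0.0098) were higher.

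With maturation, 22 of 58 pathway genes were higher and 27 lower in BAZ1B WT (84.5%, against 68.9% of all genes), and 22 were higher and 26 lower in BAZ1B KO (82.8%, against 67.7%). Receptors were mostly on the lower side: in WT all 4 tested type I receptors fell (median -1.45) and 4 of 5 type II receptors fell (median -1.49), and in KO 3 of 4 and 4 of 5 fell. Of the 6 corepressors 5 rose and 1 fell in WT, and of the 7 bHLH factors and cofactors of the ID partner list 5 rose and 1 fell. Beside these counts, the fit with globin genes left out had 4680 of 13870 genes higher and 4874 lower in BAZ1B WT. In BAZ1B KO it had 4617 higher and 4770 lower. The median change over all tested genes was -0.015 in WT and -0.023 in KO. In H2A.X KO 10 pathway genes were higher at D6 and 14 lower (42.1%, against 30.9%), and in H2A.X WT 1 was higher and 0 lower (1.75%, against 2%). With globin genes left out, 1955 of 13207 genes were higher and 2132 lower in H2A.X KO.

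Protein-coding genes within 1 Mb of SMAD1 did not share its size of change. Their values are given without the length and GC correction only. In H2A.X KO, OTUD4, at -300.6 kb from the SMAD1 start, was higher at D0 (0.92, SE 0.268, adjusted p = 0.0246) and D6 (1.44, SE 0.276, adjusted p = 0.00469), and ABCE1 at -382.9 kb was higher at D6 (0.48, SE 0.13, adjusted p = 0.0145). LSM6, 694.5 kb beyond SMAD1, was lower at both days (-1.09, SE 0.223, adjusted p = 0.0088, and -0.75, SE 0.225, adjusted p = 0.0219). The nearest tested gene, MMAA at 117.8 kb, was not called (0.09, SE 0.253 and 0.41, SE 0.261), nor was ANAPC10 (-0.58, SE 0.257 at both days). None of these neighbours was called between BAZ1B KO and WT, where HHIP, tested in that experiment only, had at most 42 reads (adjusted p = 0.462 at D0 and 0.249 at D6). The antisense genes SMAD1-AS1 and SMAD1-AS2 had 0 reads in every library.

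**Figure D4:**
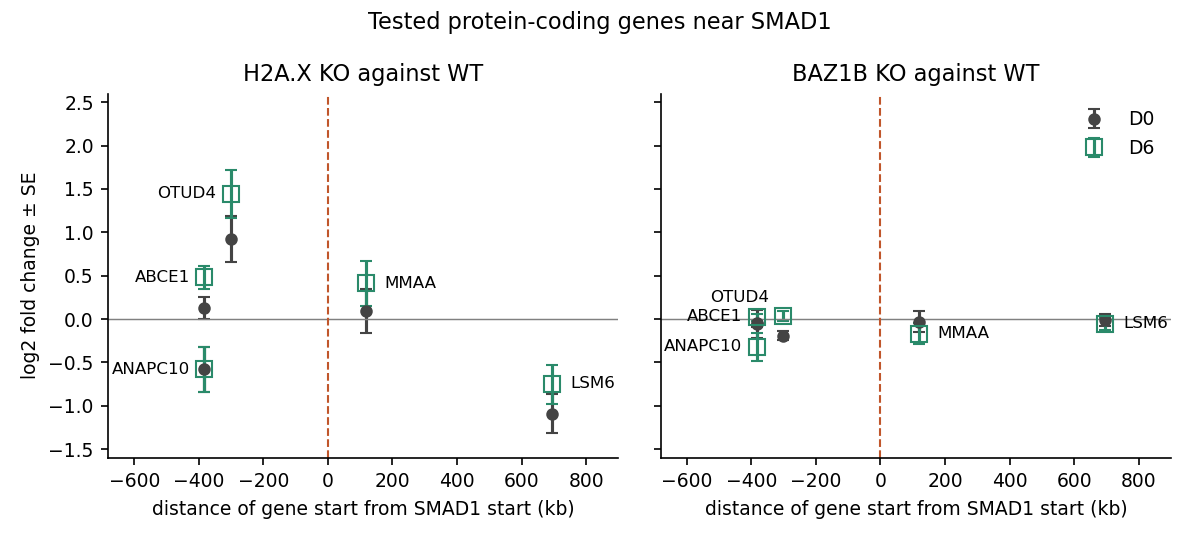
Log2 fold change of KO over WT with its SE (vertical axis) against the distance of each gene's start from that of SMAD1 in kb (dashed line at 0), at D0 (filled circles) and D6 (open squares), for tested protein-coding neighbours other than HHIP. In H2A.X KO the values, without the length and GC correction, lie between -1.09 and 1.44.

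The genes whose log2 cpm followed SMAD1 most closely over the 10 H2A.X libraries, by Pearson's r, were ZNF607 (0.994), SLFN13 (0.993), SHROOM2P1 (0.988), RAB4A (0.988) and MAGED1 (0.987). These correlations describe a split between 4 WT and 6 KO libraries. Like SMAD1, RAB4A, MAGED1 and SHROOM2P1 were low in H2A.X WT and present in BAZ1B WT. MAGED1 had 0 to 1 reads in H2A.X WT and 836 to 1872 reads in BAZ1B WT, and RAB4A had 0.518 to 1.30 cpm against 39.8 to 48.2 cpm. SHROOM2P1 had 0 reads in H2A.X WT and 53 to 80 reads (1.29 to 2.23 cpm) in BAZ1B WT. SLFN13 had 0 to 1 reads in H2A.X WT, 8.94 to 15.3 cpm in BAZ1B WT and 0.124 to 0.376 cpm in BAZ1B KO, so it was low in 1 clone set of each experiment, WT in one and KO in the other. ZNF607 was low in the BAZ1B experiment as a whole, with 0.0309 to 1.14 cpm.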

How the data were processed

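The authors deposited raw read counts per gene, 1 table per experiment. Per the labels and the study's methods, single-end reads were mapped with STAR 2.7.0f to hg38 and assigned to genes with featureCounts of Subread 1.6.4, using GENCODE 31. The labels name a kit that does not mark strand and the methods a stranded one, so strand is unclear. The 22 libraries were grouped by the labels' genotype and day, with totals of 11910141 to 41273244 counts. The members and gene lists were chosen with earlier results of these data known.

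Tests used the quasi-likelihood functions of edgeR 4.0.16 (R 4.3.3) on genes kept by filterByExpr (minimum count 10, minimum total 15), with TMM scaling and 1 coefficient per genotype and day in each experiment. They were two-sided, with Benjamini-Hochberg adjustment over all genes tested. SE is the absolute log2 change divided by the square root of F. For normalized counts, each count was divided by its library's effective size over the mean of the experiment. Lower bounds on folds set a group at 0 to 3 reads per library, and cover counting error only. The SMAD1 ratio at D6 has an exact (conditional binomial) 95% interval. The correction added offsets per library from a smooth trend over canonical transcript length and GC content (GENCODE 44), whose names matched 36434 of 59087 gene names directly and 756 through an older name. Scripts were tested on simulated data. Libraries of 1 group differed by more than sampling noise in every pair, so none was taken as a repeat.

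Alternatives were DESeq2 1.42.0, upper-quartile scaling, globin genes left out, no filter, 1 day alone, the correction, a replicate or subclone block, each library left out, and stricter cutoffs (adjusted p 0.001, log2 1.5). For H2A.X KO against WT at D6, KO replicate 3, which has no Redo mark, was also fitted as the only KO library of that day. Subclone numbers paired the days in the H2A.X experiment, where libraries of 1 number deviated together (r from 0.289 to 0.595 over 7337 genes). Besides members, the text names pathway genes called between genotypes with a mean of at least 50 normalized counts (at most 5 per experiment and day, by absolute change), tested protein-coding genes within 1 Mb of the SMAD1 start, the 5 genes most correlated with SMAD1 in the H2A.X experiment, and the deleted genes. Replicates are subclones, and p-values measure the spread between those sampled.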

Additional observations from a re-analysis of the deposited data

How the results depend on the processing

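Of 1066 member values under an alternative, 960 kept their direction and their side of the threshold, 35 changed sign without being called in either fit, 39 lost a call, 27 gained one and 5 turned in direction with a call. All 5 were of SMAD2 under the length and GC correction: -1.09 between H2A.X KO and WT at D6 with the replicate block, and 0.32 and 0.26 for D6 against D0 in BAZ1B WT and KO, without and with the subclone block (0.32 and 0.26 again). The long annotated SMAD2 transcript enters that correction, and the cause was not tested.

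The number of members called, over members other than SMAD1 in the H2A.X experiment, moved in several settings. At the stricter cutoffs it was 0 between genotypes in both experiments and at both days, 0 between days in H2A.X WT and KO, and 2 between days in BAZ1B WT and in BAZ1B KO. Leaving out each library gave 0 to 2 for H2A.X KO against WT at D0, 0 to 3 at D6, 0 to 1 for the H2A.X genotype by day difference, 0 to 1 between days in H2A.X WT, 1 to 3 in H2A.X KO, 0 to 2 for BAZ1B KO against WT at D0 and 0 to 2 at D6. For H2A.X KO against WT with the correction it was 2 at D0, SMAD2 and SMAD4, and 1 at D6, SMAD4. None of SMAD5, ID1 and ID2, the members called without the correction, was among them. With the correction and the replicate block together, SMAD2 and SMAD4 were called lower in the KO at both days. In that fit ID2 was called higher in the KO at D0 (0.73, adjusted p = 0.0283). With the D6 libraries alone the number at D6 was 1. Without the filter it was 1 for the H2A.X genotype by day difference (SMAD6) and 3 for BAZ1B KO against WT at D6 (SMAD1, SMAD6 and ID1), where DESeq2 gave 2 and leaving out globin genes 0. DESeq2 also gave 2 for BAZ1B KO against WT at D0. Between days in H2A.X KO the subclone block gave 4, and 5 with the correction.

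The replicate number was not taken to pair KO with WT libraries, with r from 0.118 to 0.237 in the H2A.X experiment, which has 2 such pairs a day, and from -0.151 to 0.243 in the BAZ1B experiment. Between days in the BAZ1B experiment r was -0.03 to 0.237 in WT and 0.107 to 0.505 in KO, where all 3 pairs were above 0.1. Without the correction a block left the counts of members called in these comparisons as they were. Depth limits SMAD6, SMAD7 and SMAD9 most, at 0 to 5 reads per library for SMAD7, and 2 WT subclones limit the H2A.X comparisons.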
